A study of Homo sapiens with 36 samples.

Results

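These data describe 52 genes whose proteins build ribosomes or form RNA polymerase I, followed in LoVo cells under increasing doses of a MEK inhibitor. The genes were taken by symbol from a list of nucleolar assembly factors and polymerase I subunits, and all 52 were found among the 20802 genes of the count files. A total of 51 had enough counts to be tested. RRP9, a protein of the particle that starts the processing of small-subunit RNA, had 1 count in all 6 DMSO libraries together and 0 at 1000 nM, so no direction can be read for it. LoVo is an established human colorectal cancer cell line. It was grown in 10% serum and exposed for 24 h to DMSO, the solvent, or to the MEK inhibitor at 0.03, 0.1, 0.3, 1, 3, 10, 30, 100, 300 or 1000 nM. Each dose had 3 libraries, and DMSO had 3 on each of 2 sequencing chips, 36 libraries in all. Same-numbered DMSO libraries of the 2 chips varied together (correlation 0.342 to 0.463 over well-counted genes), so the 6 may hold only 3 independent controls. The labels do not say how they are related, and the main fit counted all 6 as separate. RNA was read by amplicon sequencing, in which every gene is measured through a short amplified stretch, so levels were compared between libraries of a gene and never between genes.

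A ribosome is made in the nucleolus. RNA polymerase I copies the ribosomal RNA genes into a long precursor, guide RNAs in small nucleolar ribonucleoprotein particles (snoRNPs) direct its chemical modification, and separate sets of helicases, GTPases and scaffold proteins fold and cut the parts that become the small and the large subunit. Growing tumour cells make many ribosomes. MEK activates the kinase ERK, and ERK signalling is known to raise MYC, a transcription factor that with its partner MAX binds the letters CACGTG (an E-box) and is known for switching on nucleolar genes.

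The promoter letters of 4 members are printed because these had the smallest adjusted p-values at 1000 nM among members whose RefSeq promoter window holds CACGTG. The capitals mark that motif, which reads the same on both strands. For LYAR and DDX21 the 250 bases before the annotated start are shown, at chr4:4290022-4290271 on the minus strand and chr10:68956397-68956646 on the plus strand of GRCh38.p14. For GNL3 and MRTO4, where the motif lies just after the start, 30 bases are shown, at chr3:52686026-52686055 and chr1:19251807-19251836, both on the plus strand.
LYAR: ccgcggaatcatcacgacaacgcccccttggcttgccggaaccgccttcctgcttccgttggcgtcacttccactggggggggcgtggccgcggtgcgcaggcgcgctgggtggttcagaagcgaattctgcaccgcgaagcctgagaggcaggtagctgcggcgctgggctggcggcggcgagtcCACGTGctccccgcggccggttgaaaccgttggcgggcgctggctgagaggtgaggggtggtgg
DDX21: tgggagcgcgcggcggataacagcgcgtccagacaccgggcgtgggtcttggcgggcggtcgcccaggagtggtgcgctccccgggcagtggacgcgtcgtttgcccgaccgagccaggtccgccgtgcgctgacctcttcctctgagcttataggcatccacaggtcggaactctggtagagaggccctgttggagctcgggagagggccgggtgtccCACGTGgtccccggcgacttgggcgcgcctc
GNL3: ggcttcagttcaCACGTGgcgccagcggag
MRTO4: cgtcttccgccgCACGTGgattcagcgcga

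RefSeq promoter windows, each running from 250 bases before to 50 after a start, were at hand for 43 of the 52 members. CACGTG was present in 19 of these 43 genes (44.2%). Counted by window, 20 of 53 member windows (37.7%) held it, against 2548 of 35116 windows of the whole RefSeq table (7.26%). Among the 18 tested members with the motif, 18 were lower at 1000 nM and the median log2 fold change was -1.30. Among the 24 tested members whose window lacked it, 23 were lower and the median was -1.22, and of the 9 without an entry 8 were lower. Members with the motif ran from -2.31 to -0.39, a spread much wider than the distance between the medians with and without it. A match is only a run of letters, and no match says only that the letters are absent from this window. UBTF, described last, was the tested member with an entry that was not lower, and its window lacked the motif.

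Library totals ranged from 2972186 to 4751839 counts, with a median of 3952427. The first replicate at 1 nM, the first at 1000 nM and the second at 0.1 nM varied most around their group means, and the counts per dose and between doses are also given without all 3. Of 9 epithelial markers 8 exceeded 1 CPM (the count scaled to equal library sizes) in DMSO, with a summed level of 3729 to 3935 CPM. The same sum was 4202 to 4626 CPM at 1000 nM. The summed level of 8 fibroblast markers was 1.38 to 2.38 CPM in DMSO and 26.1 to 30.4 CPM at 1000 nM. COL3A1 and LUM carried most of it, and COL1A2, THY1, FAP and POSTN were at 0 counts in both. Of 4 blood cell markers PTPRC and CD3E were at 0, and their sum stayed at or below 2.17 CPM in every group. The part these markers have in the results was not tested. Between the DMSO libraries of the 2 chips 0 of 51 members and 0% of all genes differed by edgeR's quasi-likelihood test, and 1 member and 2.55% of all genes at an unadjusted p below 0.05. That test did not pair the same-numbered libraries. In a bulk sample, fewer cells of a type and less RNA per cell cannot be told apart. DUSP6, a phosphatase gene switched on by ERK and measured here to see whether the pathway was blocked, averaged 64.2 CPM in DMSO, 36.1 at 1 nM and 1.89 at 1000 nM.

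The comparisons with DMSO ask at which dose, and by how much, the RNA of ribosome assembly genes moved after MEK was inhibited. At 1000 nM, 49 of 51 tested members were lower than DMSO and 0 were higher, where 20.7% of all 12102 tested genes were lower (edgeR's quasi-likelihood test, Benjamini-Hochberg adjusted p below 0.05 against the DMSO libraries of both chips). The median member changed by -1.26 on the log2 scale, and the median of all tested genes by 0.01. In 49 members every 1000 nM library lay below every DMSO library, against 22.4% of all genes. The members together took 0.932% to 0.973% of all counts in the DMSO libraries and 0.497% to 0.520% at 1000 nM, without overlap. Leaving out NCL and NPM1, the most heavily counted of them, the share was 0.492% to 0.510% in DMSO and 0.220% to 0.225% at 1000 nM. The 10 comparisons with DMSO share their 6 control libraries, so their counts are given side by side and are not independent of each other.

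**Figure D1:**
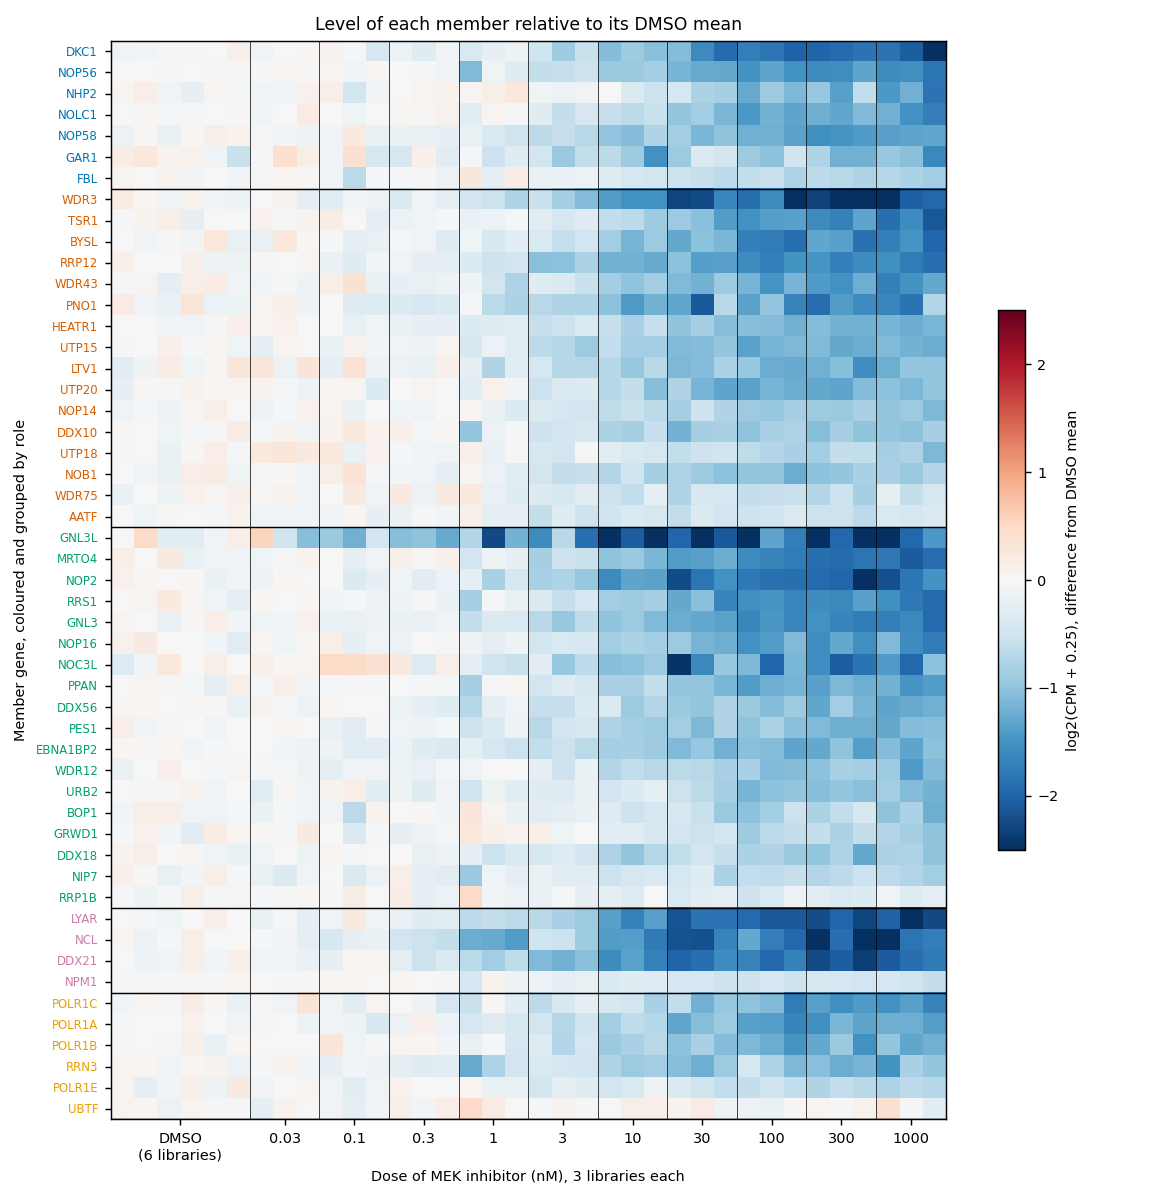
Each row is a tested member, coloured and grouped by role, and each column a library, with the 6 DMSO libraries at the left and the 3 libraries of each dose following in nM. Colour gives log2(CPM + 0.25) minus its DMSO mean, from blue (lower) to red (higher): most rows turn blue between 1 and 10 nM, while RRP1B and UBTF stay pale throughout.

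The members went down over a wide range of doses, most of them between 1 and 30 nM. No member was lower at 0.03, 0.1 or 0.3 nM by edgeR's quasi-likelihood test or by DESeq2, and 0% of all genes were; at an unadjusted p below 0.05 there were 0, 0 and 4 members (0.347%, 2.47% and 2.73% of all genes, in either direction). At 1 nM 10 members were lower, against 4.02% of all genes, and at 3 nM 27 (6.68%). Both counts depend on the control: at 1 nM it was 18 with the first chip's DMSO alone, 25 when the DMSO groups were averaged and 19 when the same-numbered DMSO libraries were added together, and at 3 nM 43 and 41 with the latter 2. A dose of 10 nM brought 44 (13.3%). The count was 48 for both 30 nM (18%) and 100 nM (18.8%), and 49 for 300 nM (23%) as for the highest dose. No member was higher in any comparison with DMSO, while the share of all genes that were higher was 0% up to 0.3 nM and then 3.95%, 6.66%, 13.5%, 18%, 18.4%, 22.1% and 21.2% from 1 to 1000 nM. The median member was at -0.11 under 0.3 nM and at -0.27 under 1 nM. The next doses, from 3 to 300 nM, had medians of -0.47, -0.78, -1.0, -1.21 and -1.22. The median of all tested genes lay between 0.00 and 0.01 at each of these doses. Without the 3 most variable libraries the counts for 1, 3, 10 and 1000 nM were 13, 34, 47 and 49. For these counts and those with other controls the share of all genes that passed is not given, so they cannot be set against all genes. The course was thus a gradual descent from 1 to 100 nM with little further change in the median above that.

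Separation from the controls could be seen in single libraries before any member passed the test. At 0.3 nM 40 of 51 members had a log2 fold change below 0, against 5925 of all 12102 genes. At 0.03 and 0.1 nM it was 32 and 35 members, against 5955 and 6165 genes. In 10 members all 3 libraries of 0.3 nM lay below all 6 DMSO libraries, against 4.83% of all genes. These 10 were NOP58, DKC1, HEATR1, PNO1, GNL3L, EBNA1BP2, NCL, DDX21, LYAR and RRN3, named after their values were seen. The same held for 19 members at 1 nM (10.5%), for 42 at 3 nM (14.4%) and for 47 at 10 nM (20.1%). Without the 3 most variable libraries it was 26 at 1 nM (15.7%), a count over 2 libraries of that dose. Below 0.3 nM it held for 0 members at 0.03 nM (1.02%) and 4 at 0.1 nM (2.27%), and for 49 at 30 nM (21.5%), 49 at 100 nM (23.5%) and 50 at 300 nM (26.4%). The dose from which a member stayed lower at all higher doses was 1 nM for 9 members, 3 nM for 18, 10 nM for 16 and 30 nM for 5. GAR1 was lower without a break only from 300 nM. NOP56, HEATR1, RRP12, GNL3, EBNA1BP2, DDX21, LYAR, POLR1A and RRN3 were the 9 that began at 1 nM, so the earliest group held genes of each role. Without the 3 most variable libraries 13 members began at 1 nM. NOP56 and HEATR1 were then not among them, and NOP58, WDR43, PNO1, NOP2, DDX18 and NCL were. RRP1B and UBTF never passed the test. Starting doses were not counted over all genes, so these counts of members cannot be set against all genes.

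**Figure D2:**
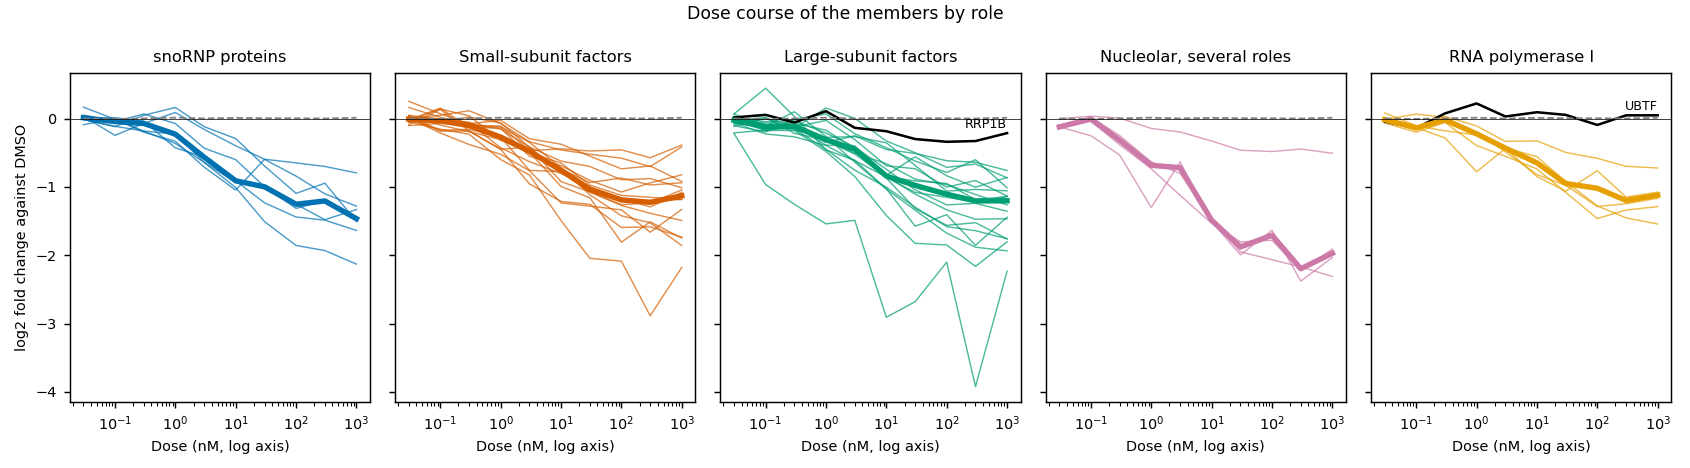
Log2 fold change against DMSO (vertical) by dose in nM on a log axis (horizontal), 1 panel for each role; thin lines are members, the thick line is the role's median and the dashed line the median of all tested genes. Medians descend from 1 to 10 nM in every panel; RRP1B and UBTF, drawn in black, are the members not lower at 1000 nM, and the deepest line among the large-subunit factors is GNL3L, which had 2 counts in its 3 libraries at 300 nM.

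The snoRNP proteins carry the guide RNAs that place methyl groups and pseudouridines on ribosomal RNA. All 7 tested were lower at 1000 nM, with a median log2 fold change of -1.46. DKC1, the pseudouridine synthase of the H/ACA particles, moved most. It was at 122, 124 and 128 CPM in the DMSO libraries of the first chip and at 133, 131 and 141 in those of the other. At 1000 nM its libraries held 36, 30.7 and 22.7 CPM, all far below the lowest control. The mean fell from 130 ± 3.87 (SD, n = 3, same-numbered DMSO libraries of both chips averaged) to 29.8 ± 6.72 CPM (n = 3). On the log2 scale this was -2.13 (SE 0.15, adjusted p = 3.59e-16, edgeR's quasi-likelihood test). FBL, the ribose methyltransferase of the C/D particles, moved least in this group. Its DMSO libraries held 307, 293, 312, 279, 292 and 278 CPM and its 1000 nM libraries 178, 170 and 160 CPM, again without overlap. The log2 fold change was -0.79 (SE 0.11, adjusted p = 1.93e-07, edgeR's quasi-likelihood test).

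FBL shares its particle with NOP56 and NOP58, the C/D scaffold proteins, which changed by -1.64 and -1.33. NHP2 and GAR1, which hold the H/ACA particle together with DKC1, changed by -1.50 and -1.28. NOLC1, a chaperone that gathers both kinds of particle in the nucleolus, changed by -1.46. These values had an SE of 0.11 to 0.17 except for GAR1, and whether partners in a particle differed was not tested. GAR1 was counted thinly (123 counts over the 6 DMSO libraries, 26 over the 3 at 1000 nM), its SE was 0.34, and without replicate 3 of 1000 nM its adjusted p was 0.0525. GAR1 passed at 10 nM (-1.05, adjusted p = 0.0449, edgeR's quasi-likelihood test), not at 30 or 100 nM, and again at 300 nM. NHP2 was late: it was lower from 30 nM on, and at 10 nM its adjusted p was 0.287 in edgeR's quasi-likelihood test.

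All 16 small-subunit factors were lower at 1000 nM, with a median of -1.13. Most belong to the processome, the large assembly that forms on the nascent precursor. WDR3, one of its scaffold proteins, moved most: its DMSO libraries held 45.6, 40.6, 36.3, 42.1, 36.4 and 36.1 CPM and its 1000 nM libraries 6.75, 9.36 and 9.89 CPM. Every treated library was far below the lowest control. The log2 fold change was -2.18 (SE 0.22, adjusted p = 7.25e-11, edgeR's quasi-likelihood test), and at 300 nM it was -2.88. AATF, which takes part in the processome and is also known as a transcription co-regulator of p53, moved least. It held 131, 122, 135, 133, 129 and 140 CPM in DMSO and 102, 98.6 and 102 CPM at 1000 nM, a smaller gap that still left the groups apart. Its log2 fold change was -0.39 (SE 0.10, adjusted p = 0.00252, edgeR's quasi-likelihood test). AATF had reached -0.47 by 3 nM and did not go deeper than -0.57 at any dose.

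Other processome members spread between these values. WDR43, UTP15, HEATR1 and WDR75, which bind the start of the precursor, changed by -1.49, -1.18, -1.18 and -0.41. UTP18, UTP20, NOP14 and the helicase DDX10 changed by -0.92, -1.04, -1.01 and -0.94. WDR75 was the least secure call, with adjusted p = 0.035 in edgeR's quasi-likelihood test. Without replicate 2 or replicate 3 of the first chip's DMSO its adjusted p was 0.117 or 0.0503, without replicate 2 or replicate 3 of 1000 nM 0.173 or 0.0657, and with upper-quartile scaling 0.0574.

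The late small-subunit factors act on particles that are leaving the nucleolus. TSR1, a GTPase-like protein that keeps immature subunits from joining, changed by -1.86. BYSL (bystin), RRP12, an export factor, and PNO1, which binds the last cleavage site, changed by -1.75, -1.74 and -1.33. LTV1, released as the head of the subunit matures, changed by -1.08, and NOB1, the nuclease that makes the last cut, by -0.82. NOB1 and PNO1 work together on that cut. The SE was 0.11 for NOB1 and 0.24 for PNO1, and the difference between them was not tested.

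Among 18 large-subunit factors 17 were lower at 1000 nM and the median was -1.20. GNL3L, a GTPase related to nucleostemin, had the largest fitted change, on few counts. Its DMSO libraries held 12, 17, 9, 8, 9 and 10 counts and its 1000 nM libraries 1, 2 and 4, so the groups stood apart. The log2 fold change was -2.23 with an SE of 0.60 (adjusted p = 0.00294, edgeR's quasi-likelihood test), the widest error of any member. NIP7, a factor bound to early large-subunit particles, was the called member that moved least. In DMSO it held 86.7, 81.7, 69.6, 75.6, 87.5 and 77.7 CPM, and at 1000 nM 50.7, 48.0 and 43.2 CPM. These did not overlap, and the log2 fold change was -0.76 (SE 0.14, adjusted p = 1.95e-05, edgeR's quasi-likelihood test).

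RRP1B, a nucleolar protein of large-subunit particles, was the exception in its group. The DMSO libraries held 143, 133, 139, 159, 143 and 152.6 CPM. At 1000 nM they held 136, 116 and 122 CPM, with the highest inside the DMSO range. Its log2 fold change was -0.21 (SE 0.12, adjusted p = 0.357), and the lowest value over the doses was -0.34 at 100 nM (adjusted p = 0.064, edgeR's quasi-likelihood test). Tested against the second chip's DMSO alone, it was lower at 1000 nM, with a log2 fold change of -0.28 and an adjusted p of 0.0487.

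The remaining large-subunit factors lay between -0.86 and -1.93. MRTO4, which holds the place of the stalk protein on the immature subunit, changed by -1.93, NOP2, a methyltransferase of large-subunit RNA, by -1.80, and GNL3 (nucleostemin) and RRS1 both by -1.76. GNL3 was at 127 to 162 CPM over the DMSO libraries and at 43.9, 47.4 and 37.6 CPM at 1000 nM. BOP1, PES1 and WDR12 form a complex of their own and changed by -1.01, -1.14 and -1.13, with an SE of 0.11 to 0.15. NOP16, NOC3L, PPAN and the helicase DDX56 changed by -1.46, -1.44, -1.36 and -1.26. EBNA1BP2, URB2, GRWD1 (a chaperone of a ribosomal protein) and the helicase DDX18 changed by -1.14, -1.06, -0.87 and -0.86.

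**Figure D3:**
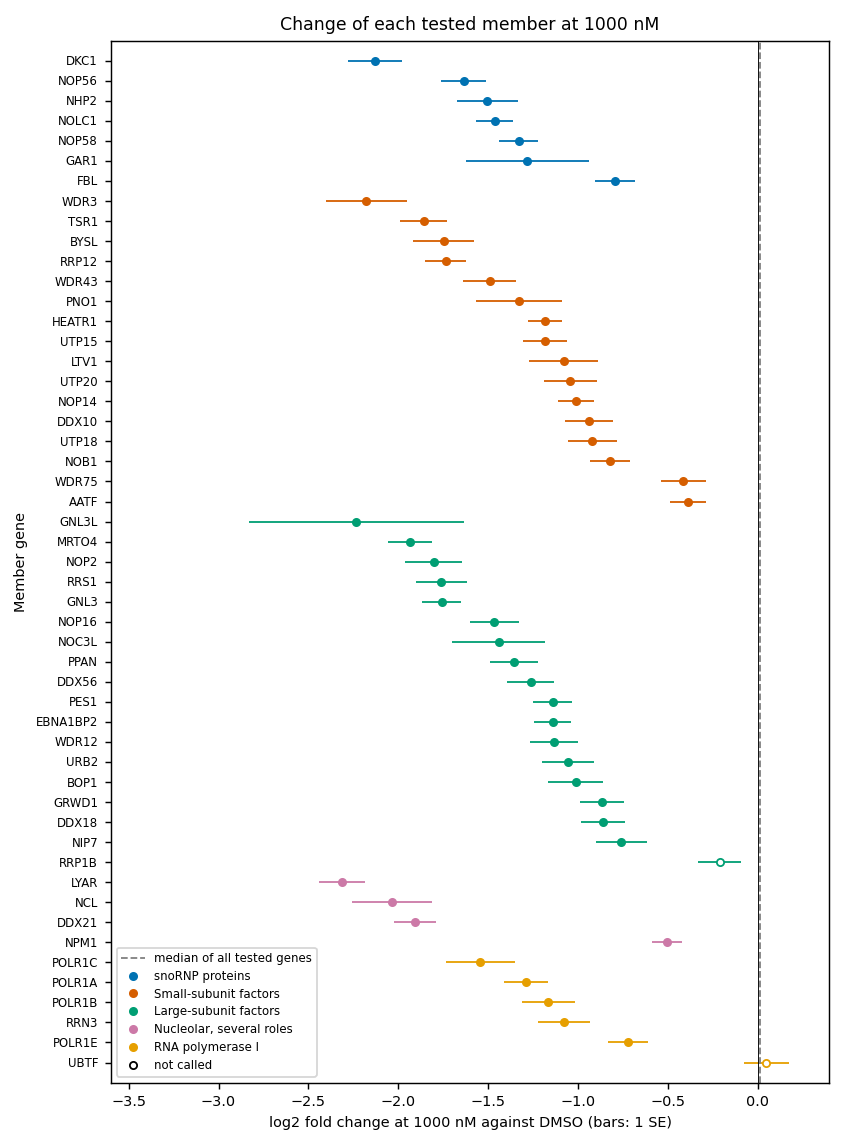
Log2 fold change at 1000 nM against DMSO with 1 SE (horizontal) for every tested member (vertical), coloured by role and ordered by size within it. Values run from -2.31 for LYAR to 0.05 for UBTF; the open circles are RRP1B and UBTF, the members that did not pass the test, and the dashed line is the median of all tested genes.

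The nucleolar proteins with several roles were NCL, NPM1, DDX21 and LYAR, and all 4 were lower at 1000 nM, with a median of -1.97. LYAR, a zinc-finger protein that helps process the precursor, moved most of all members. Its 6 DMSO libraries held 126, 122, 116, 126, 137 and 126 CPM. Its libraries were at 80.0, 83.1 and 79.9 CPM at 1 nM, 48.9, 38.8 and 48.9 CPM at 10 nM and 30.7, 19.0 and 26.1 CPM at 1000 nM, so each of these groups lay wholly below the one before. The log2 fold change at 1000 nM was -2.31 (SE 0.13, adjusted p = 2.12e-20, edgeR's quasi-likelihood test). DDX21, a helicase that acts on both polymerase I transcription and RNA processing, was at 164 to 197 CPM in DMSO and at 41.9, 48.3 and 52.1 CPM at 1000 nM. Its change had reached -0.73 at 1 nM and -1.12 at 3 nM and was -1.91 at 1000 nM.

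NPM1 (nucleophosmin), an abundant histone and ribosome chaperone, moved least in this group. Its DMSO libraries held 3676, 3657, 3699, 3838, 3820 and 3902 CPM and its 1000 nM libraries 2795, 2654 and 2502 CPM, which do not overlap. The log2 fold change was -0.51 (SE 0.08, adjusted p = 6.92e-06, edgeR's quasi-likelihood test). NPM1 has many near-identical pseudogene copies, so how its reads were assigned is uncertain. NCL (nucleolin), a binder of the precursor RNA, did not follow a smooth course. It was at 714 to 879 CPM in DMSO, at 577, 542 and 521 CPM at 0.3 nM, at 333, 330 and 301 CPM at 1 nM and at 556, 548 and 426 CPM at 3 nM. Against DMSO it was lower at 1 nM (adjusted p = 0.000448), not at 3 nM (adjusted p = 0.0679), and lower again at 10 nM and above. The difference of 0.67 from 1 to 3 nM had an SE of 0.21 (adjusted p = 0.0737, edgeR's quasi-likelihood test). Replicate 1 of 1 nM was the most variable library, and its NCL value of 333 CPM was close to the other 2 of that dose.

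Of the 6 polymerase I genes 5 were lower at 1000 nM, and the median was -1.12. POLR1C, a subunit shared with RNA polymerase III, moved most, although late. Its DMSO libraries held 31.8, 34.8, 32.7, 38.1, 34.5 and 30.0 CPM, its 10 nM libraries 25.3, 24.1 and 19.1 CPM and its 1000 nM libraries 11.5, 12.9 and 10.4 CPM. Treated and control libraries were apart at both doses, and the log2 fold change went from -0.56 at 10 nM to -1.54 at 1000 nM (SE 0.19, adjusted p = 2.84e-09, edgeR's quasi-likelihood test). POLR1A and POLR1B, which together form the catalytic centre, changed by -1.29 and -1.16. POLR1E, a subunit that helps initiation and elongation, moved least. It was at 90.9, 73.4, 82.5, 96.4, 79.4 and 102 CPM in DMSO and at 50.9, 55 and 52.6 CPM at 1000 nM, again apart. Its log2 fold change was -0.72 (SE 0.11, adjusted p = 5.21e-06, edgeR's quasi-likelihood test).

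RRN3 and UBTF are not subunits but factors that bring the polymerase to its genes, and both proteins are known to be activated through phosphorylation, which RNA levels do not measure. RRN3 was at 71.5 to 84.1 CPM in DMSO, at 66.6, 63.8 and 65.1 CPM at 0.3 nM and at 32.8, 46.4 and 57.5 CPM at 1 nM. Every library of both doses was below the controls, and RRN3 was lower from 1 nM on, with a log2 fold change there of -0.61 (adjusted p = 0.000785, edgeR's quasi-likelihood test) when the 3 most variable libraries, one of them the 32.8 CPM library, were left out. At 3 nM it was at 61.0, 58.3 and 56.3 CPM, above 2 of the 3 libraries of 1 nM, and at 1000 nM at 27.9, 44.8 and 40.1 CPM, with a log2 fold change of -1.08. UBTF, the factor that keeps ribosomal RNA genes open, held 89.2, 88.0, 76.5, 89.4, 83.5 and 83.1 CPM in DMSO and 111, 83.1 and 70.0 CPM at 1000 nM. The 3 treated libraries thus lay above, inside and below the DMSO range. Its log2 fold change was 0.05 (SE 0.12, adjusted p = 0.855, edgeR's quasi-likelihood test), and without replicate 1 of 1000 nM, the library at 111 CPM, it was -0.16 (adjusted p = 0.373). At no dose did it pass the test, and its values ran from -0.14 at 0.1 nM to 0.22 at 1 nM.

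**Figure D4:**
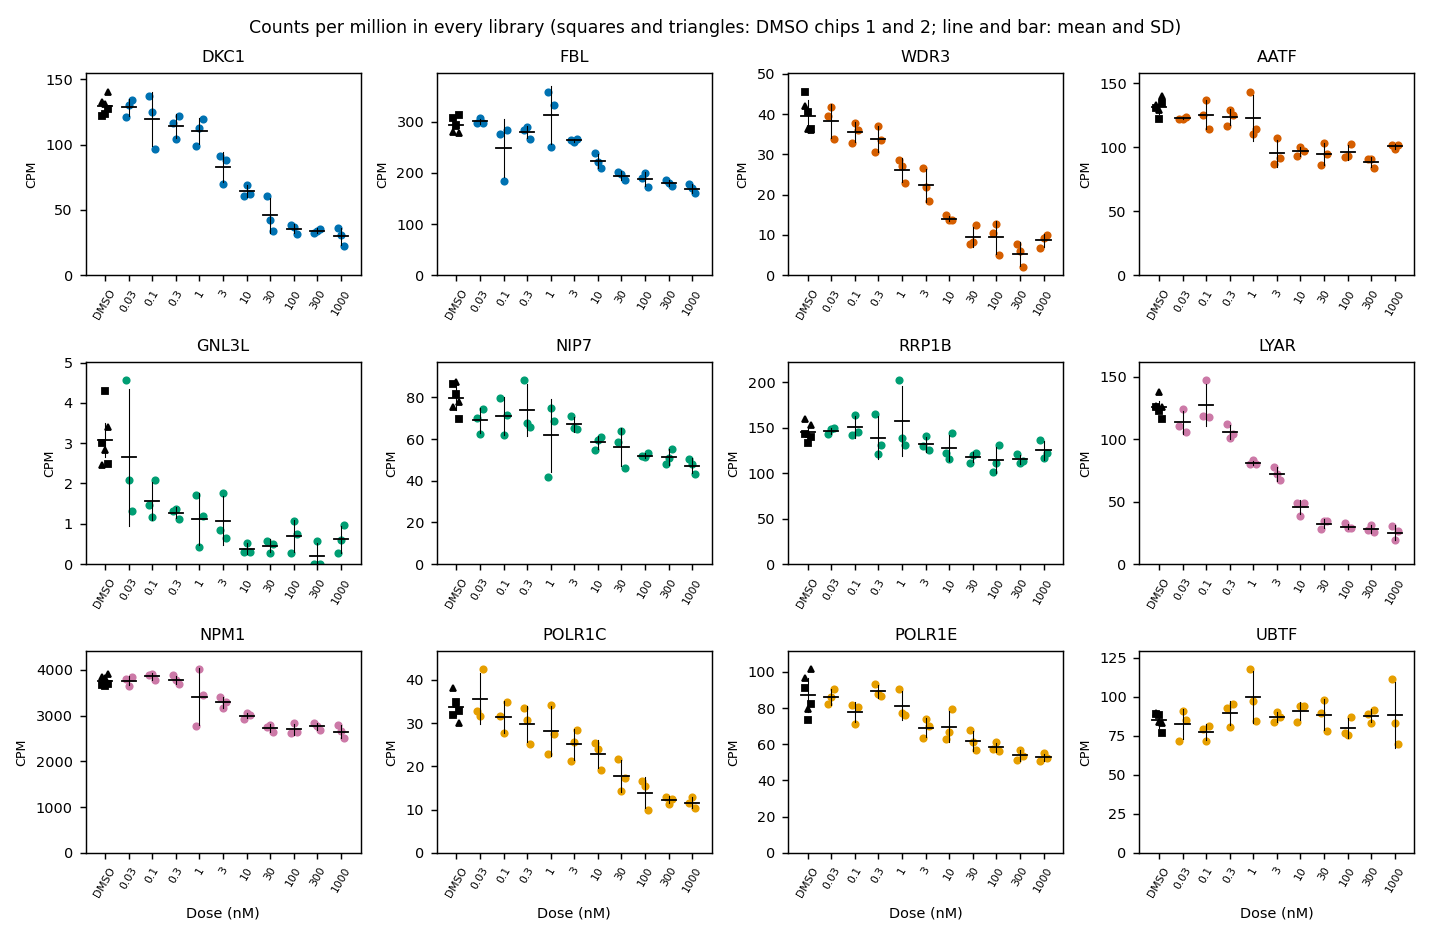
CPM (vertical, from 0) in every library by dose in nM (horizontal) for the 12 members with the largest or smallest called change in each role and those not called; squares and triangles are DMSO libraries of the first and the other chip, circles treated libraries, lines and bars the mean and SD. LYAR, WDR3 and DKC1 descend over several doses, AATF drops once by 3 nM and stays level, and UBTF libraries at 1000 nM spread over 70.0 to 111 CPM.

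The role classes were compared by their counts and medians, with no test between them. At 1 nM 3 of 4 nucleolar proteins of several roles were lower, 2 of 6 polymerase I genes, 1 of 7 snoRNP proteins, 2 of 16 small-subunit and 2 of 18 large-subunit factors. Without the 3 most variable libraries these were 3, 2, 1, 3 and 4, in the same order. At 3 nM 11 of 16 small-subunit factors were lower (median -0.48) and 7 of 18 large-subunit factors (median -0.45), so these classes differed in calls more than in medians. The polymerase I genes had the shallowest median at 10 nM (-0.65) and the snoRNP proteins stood at -0.91. At 1000 nM the medians of the small-subunit (-1.13), large-subunit (-1.20) and polymerase I (-1.12) classes lay within 0.1 of each other. Those of the snoRNP proteins (-1.46) and of the nucleolar proteins of several roles (-1.97) were lower. Single genes ranged from -2.18 to -0.39 in the small-subunit class, from -2.23 to -0.21 in the large-subunit class and from -1.54 to 0.05 among polymerase I genes. The spread inside the small-subunit, large-subunit and polymerase I classes was thus wider than the distance between their medians.

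Adjacent doses were compared next, in the same fit of 36 libraries but with contrasts that leave out the DMSO means. From 0.3 to 1 nM 3 members went down, MRTO4, LYAR and RRN3 (1.21% of all genes went down), all with adjusted p between 0.04 and 0.0493 by edgeR's quasi-likelihood test. From 1 to 3 nM 7 did (2.87%): RRP12 by -0.51, UTP15 by -0.49, NOB1 by -0.41, DDX21 by -0.39, MRTO4 by -0.38, and NOLC1 and AATF both by -0.36. From 3 to 10 nM it was 4 (0.744%): NCL by -0.87, LYAR by -0.67, NOP2 by -0.57 and WDR43 by -0.51. Between 0.03 and 0.3 nM and above 10 nM none of the adjacent steps had a member that passed, with edgeR or with DESeq2 (of all genes 0.182% went down from 10 to 30 nM, 0.0578% from 30 to 100 nM and 0% in the other 4). Under other settings some did: with no filter on low counts 2 members passed from 10 to 30 nM, 1 from 100 to 300 nM and 1 from 300 to 1000 nM, and without the 3 most variable libraries 4 passed from 10 to 30 nM and 2 from 300 to 1000 nM. At an unadjusted p below 0.05 there were 1 and 6 members in the 2 steps up to 0.3 nM (7.7% and 9.96% of all genes), and 20, 12, 5 and 8 in the 4 steps from 10 to 1000 nM (8.4%, 8.05%, 10.5% and 12.1%). The chips of the 3 and 10 nM libraries are not named, so a chip difference cannot be told apart from dose in that step. These step counts rest on few libraries. The first was 0 without any 1 of the 0.3 nM libraries or without replicate 1 of 1 nM, the next was 4, 4 and 2 without replicate 1, 2 or 3 of 3 nM, and the last was 1 without replicate 2 of 3 nM or replicate 1 or 3 of 10 nM. Without the 3 most variable libraries named above, the last was 19. None of those libraries belongs to 3 or 10 nM, and they share only the fit with that step. For these other settings the share of all genes that passed is not given.

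Wider steps, added after the adjacent ones had been seen, showed where the later part of the descent lay. From 10 to 100 nM 20 of 51 members went down (3.35% of all genes), with a median of -0.36. DKC1 (-0.85), BYSL (-0.82), NHP2 (-0.80), POLR1A (-0.73), POLR1C (-0.72) and NOLC1 (-0.71) had the largest of these changes. From 100 to 1000 nM none passed by edgeR's quasi-likelihood test (0.00826% of all genes did; 5 members and 6.73% of all genes at an unadjusted p below 0.05), and the median was -0.13. AATF, at -0.47 by 3 nM and -0.39 at 1000 nM, and NHP2, at -0.29 by 10 nM and -1.50 at 1000 nM, mark the range of courses inside the list.

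A saturation curve was fitted to each gene to put a dose on its course. The EC50 is the fitted dose at the midpoint of a gene's log2 change. A fit was kept when the SE of the log10 EC50 was below 0.2. Of the 49 members lower at 1000 nM 42 met this (85.7%), against 35.2% of all 2503 genes lower at 1000 nM. Their median EC50 was 5.36 nM, near the median of 4.62 nM over all 881 well-fitted genes. It was 3.34 nM for the nucleolar proteins of several roles (4 genes) and 5.11 nM for the small-subunit factors (14 genes). For the large-subunit factors it was 6.01 nM (14 genes). The polymerase I genes had 7.41 nM (4 genes) and the snoRNP proteins 10.1 nM (6 genes). Among these 42, DDX21 had the lowest EC50, 2.13 nM (95% interval 1.52 to 2.99 nM), and NHP2 the highest, 32.7 nM (16.1 to 66.8 nM). GNL3L, RRN3, AATF and GAR1 had lower fitted values, 0.56, 0.69, 1.33 and 1.47 nM, but did not meet the limit on the SE. RRN3 and AATF missed it narrowly, both with an SE of 0.21. The medians by role therefore leave out RRN3 for polymerase I, GAR1 for the snoRNPs, AATF for the small subunit and GNL3L for the large subunit. The intervals of many neighbours in the order overlap, but those of DDX21 and RRP12 (2.62 nM, 1.84 to 3.72) do not reach those of TSR1 (15.4 nM, 10.6 to 22.3) or NHP2.

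**Figure D5:**
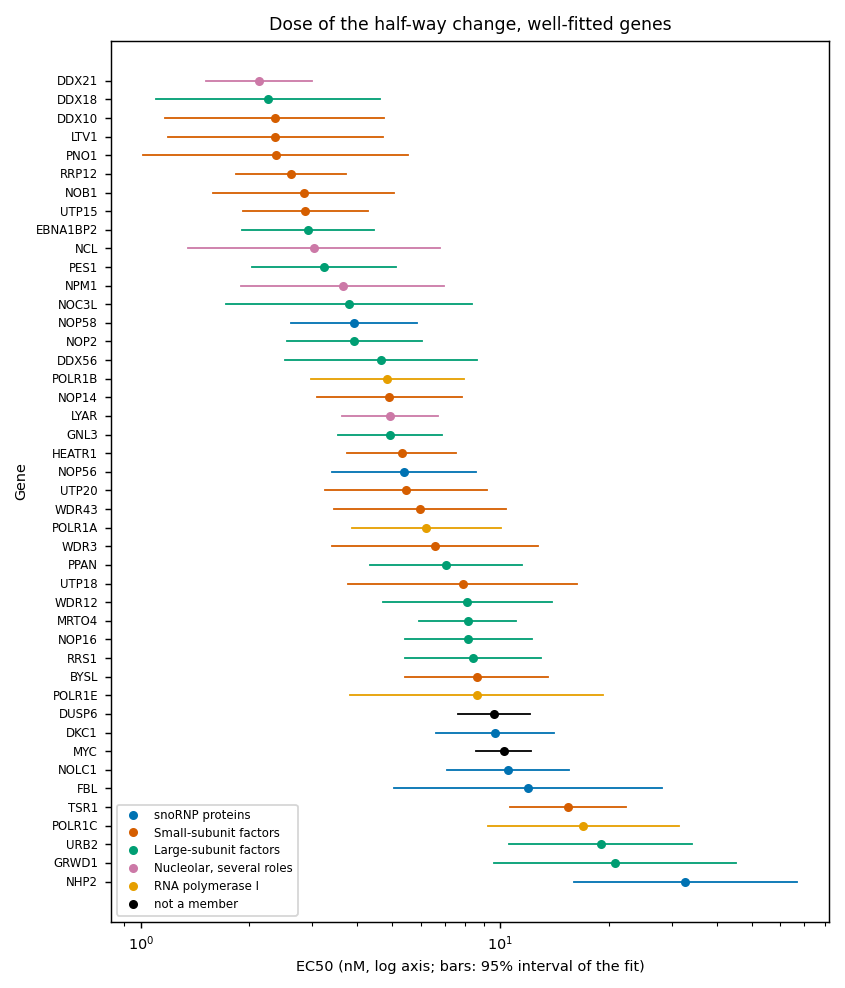
EC50 in nM on a log axis (horizontal) with its 95% interval for the 42 well-fitted members and, in black, for MYC and DUSP6 (vertical, in order of EC50). Points run from 2.13 nM for DDX21 to 32.7 nM for NHP2, and most intervals overlap those of their neighbours.

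MYC, known as a regulator of these genes, was measured beside them. It averaged 423 ± 16.4 CPM in DMSO (n = 3), 382 ± 23.7 at 1 nM, 162 ± 20.9 at 10 nM and 55.9 ± 5.72 at 1000 nM (n = 3 each). At 1 nM its log2 fold change was -0.15 (adjusted p = 0.471, edgeR's quasi-likelihood test). The median member was at -0.27 at that dose, where 10 of 51 members had passed the test and 41 had not. At 3 nM MYC was at -0.76 (adjusted p = 1.61e-08, edgeR's quasi-likelihood test). The median member was at -0.47 there, and 27 members had passed. Whether MYC and the members differed at a dose was not tested. Its EC50 was 10.2 nM (8.56 to 12.2 nM). Of the 42 well-fitted members 20 had an interval wholly below that of MYC, DDX21 the lowest, and 1, NHP2, had an interval wholly above it. These midpoints lie on the log2 scale, and the fitted full change was deeper for MYC (-2.81) than for any of the 42 (WDR3 deepest, -2.43). Midpoints on the CPM scale were not fitted, and the order of MYC and the members could differ there. MYC kept falling between adjacent doses up to the step from 30 to 100 nM (-0.50, adjusted p = 0.019), where no member passed the test. DUSP6 had an EC50 of 9.60 nM.

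Another 93 genes of the same pathway, chosen by role, were measured beside the members. Of these 91 were tested (RRP7A and NSA2 had too few counts). At 1000 nM 65 of the 91 were lower and 1 was higher, with a median of -0.71. Of all tested genes 20.7% were lower at that dose and 21.2% were higher. The gene that was higher, NOP10, was named after its value was seen: it encodes a small H/ACA protein, a partner of DKC1, and went from a mean of 122 CPM in DMSO to 194 at 1000 nM (0.67, adjusted p = 0.00707, edgeR's quasi-likelihood test). By listed role, 7 of 10 snoRNP, 24 of 34 small-subunit, 30 of 38 large-subunit and 4 of 9 polymerase I genes were lower. Each gene, TCOF1 among them, was listed under 1 role only, and other roles it may have were not counted. The strongest by adjusted p were TCOF1 (treacle, -1.72) and RUVBL1 (-1.11) for snoRNPs, CIRH1A (-1.23) and the acetyltransferase NAT10 (-1.43) for the small subunit, WDR74 (-2.08) and NLE1 (-1.37) for the large subunit, and the polymerase I subunit CD3EAP (-2.12) and the initiation factor gene TAF1D (-0.66).

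Other genes of the pathway stayed near their DMSO level, here those with the largest adjusted p in each role. GLTSCR2 averaged 767 CPM in DMSO and 759 at 1000 nM (-0.01), and RPF1 83.3 and 81.6 CPM (-0.03). The polymerase I subunit TWISTNB averaged 54.1 and 58.2 CPM (0.11), FCF1 35.1 and 37.0 CPM (0.09), and ZNHIT3 24.1 and 24.9 CPM (0.06). SHQ1 (-0.10), UTP23 (-0.15) and the thinly counted termination factor TTF1 (-0.30, SE 0.53) did not pass either. With UBTF among the members, the polymerase I machinery therefore held both genes that fell by more than 1.5 on the log2 scale, POLR1C and CD3EAP, and genes with values near 0, UBTF and TWISTNB.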

How the data were processed

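Total RNA from 36 LoVo libraries was measured by Ion AmpliSeq amplicon sequencing. The authors deposited raw read counts per gene for each library, on hg19 per the submitters' processing notes. Aligner and counter are not given in the sources consulted, nor is the chip of the treated libraries. The 10 spike-in rows held 0 counts and were left out. The 20802 genes were filtered with filterByExpr (12102 kept), scaled with TMM and fitted with edgeR 4.0.16 (quasi-likelihood, robust) in 12 groups with 24 residual degrees of freedom. A gene was called against DMSO when the larger of its p-values against the 2 DMSO chips, Benjamini-Hochberg adjusted over all tested genes, was below 0.05 with the same sign in both; fold changes are against the mean of both. CPM are per TMM-scaled library. DMSO libraries of the same number were averaged over chips for the SD. Over 2954 well-counted genes their deviations correlated at 0.342 to 0.463, against -0.317 to -0.138 for other numbers, and dose libraries with same-numbered DMSO libraries at -0.177 to 0.217. EC50 fits used log2 CPM with a prior count of 1.

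Values in every library are given, in each role, for the called members with the largest and smallest change at 1000 nM and for those not called; of the other pathway genes, the 2 with the smallest and the 2 with the largest adjusted p. Members, roles and lists were chosen with earlier results of these data known. Promoter letters are from RefSeq (GRCh38.p14), used for sequence only. On simulated counts of 1000 nM against DMSO (11959 genes) 12%, 68%, 94% and 98% of genes changed by 0.5, 1, 2 and 3 on the log2 scale were recovered, with 0 false calls. For the step from 1 to 3 nM (11956 genes) these were 42%, 88%, 90% and 100%, with 11 false calls. The simulations changed 50 genes by each amount, far fewer than were called in the data at 1000 nM. Alternatives covered scaling, filters, DESeq2 1.42.0, the control group, a replicate block, leaving out each library and, added after seeing the data, leaving out the 3 most variable libraries.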

Additional observations from a re-analysis of the deposited data

How the results depend on the processing

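Counts of members lower against DMSO from 10 to 1000 nM stayed within 1.5 times their value under every alternative run. With each library left out in turn they were 41 to 44 at 10 nM and 47 to 49 at 1000 nM. At lower doses the control mattered: at 1 nM the count was 18 with the first chip's DMSO alone, 25 with the mean of both DMSO groups and 19 with DMSO libraries summed over chips, and at 3 nM it was 43 and 41 with the latter 2. At 0.3 nM it was 1 with no filter and 2 with only the compared libraries in the fit. Of the adjacent steps, 0.3 to 1 nM gave 5 with DESeq2 and 0 to 4 with each library left out. The step from 1 to 3 nM gave 2 to 7 with libraries left out, and 3 to 10 nM gave 1 to 3. With no filter 3 to 10 nM gave 8, 10 to 30 nM gave 2, and 100 to 300 nM and 300 to 1000 nM 1 each. Without the 3 most variable libraries 3 to 10 nM gave 19, 10 to 30 nM 4 and 300 to 1000 nM 2. Leaving out single libraries, 10 to 30 nM and 300 to 1000 nM gave 0 to 1. The median EC50 was 4.20 nM with doses up to 100 nM only and 4.43 to 6.08 nM with a replicate left out. UBTF at 1000 nM ran from -0.162 without replicate 1 to 0.191 without replicate 3, and was -0.158 without the 3 libraries. In 3 of 318 alternative counts a member was higher, at most 1. The causes of these differences were not tested. None of the 3 most variable libraries belongs to 3 or 10 nM, so the step from 3 to 10 nM kept all its libraries when its count was 19. For these alternatives the share of all genes that passed is not given. With the replicate number as a block, the counts were 10, 27 and 44 at 1, 3 and 10 nM and 49 at 1000 nM, and 2 for 0.3 to 1 nM. The block changed no call by over 1.5 times, and the numbers pair the DMSO chips but not the doses: 14 of 36 libraries correlated best with their own number. In the simulation, where 50 genes were changed by each amount, log2 changes of 0.5 were mostly missed. In the data 41.8% of all genes passed at 1000 nM, where the adjustment is less strict. The simulated shares therefore do not measure recovery in that comparison.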
